A study of Homo sapiens with 9 samples.

Results

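The genes described here encode 42 lysosomal enzymes and lysosomal membrane proteins, listed by name as well-known residents of the lysosome. The list was chosen with earlier results of these data known, which limits every count of these genes set beside all genes. The 42 genes were followed in cytoplasmic RNA of HCT116 cells, an established human colorectal carcinoma line, 72 h after transfection with GANP siRNA, NXF1 siRNA or control siRNA. Each group held 3 Illumina HumanWG-6 v3 arrays, and each of 3 independent depletion experiments supplied 1 array to every group. The cells of all 9 arrays differed only in the siRNA they received, with 1 siRNA sequence per target and a control siRNA that differed from the GANP siRNA at a few bases. NXF1 is the main receptor that carries mRNA through the nuclear pore, and GANP, encoded by MCM3AP, is the scaffold of the TREX-2 complex at the pore. Of the 42 genes, 41 had a probe with that single gene symbol, AGA being the exception, and 39 had a probe brighter than the median probe. These 39 were tested among 13118 genes in all. GALC, the galactosylceramide hydrolase, had a mean log2 signal of 6.04 and IDUA, the iduronidase of glycosaminoglycan breakdown, of 6.22, both below the median signal of 6.355, and neither was tested.

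Lysosomes break down proteins, sugar chains and lipids in an acidic lumen that is enclosed by a heavily glycosylated membrane. Lysosomal hydrolases are made on ribosomes at the endoplasmic reticulum (ER), and many of them are then tagged with mannose 6-phosphate in the Golgi and delivered to the lysosome by mannose 6-phosphate receptors. Transcription of many of these genes is promoted by TFEB and TFE3, basic helix-loop-helix factors of the MiT/TFE family, which bind an E-box with the core CACGTG that is known as the CLEAR element.

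RefSeq promoter sequences, which span 250 bases before to 50 bases after a transcription start on GRCh38.p14, were matched by symbol to 32 of the 42 genes, with 43 promoters among them. The palindrome CACGTG, which reads the same on both strands, lay in 10 of these 43 promoters, belonging to 9 genes, and in 7.26% of all 35116 promoters of that length. In all 10 it was part of TCACGTG on one strand or the other, found in 3.71% of all promoters, and in 7, from 6 genes, it was part of TCACGTGA, found in 0.98%. The letters TGATGNAA, the core of the C/EBP-ATF response element, searched on both strands, were in 0 of the 43 and in 3.62% of all. The windows below are shown because they let the motif be read beside the array values. LAMP1, CTSD and NEU1 rose after NXF1 siRNA, whereas GAA and MCOLN1 were not called against control in the main fit. With the depletion experiment fitted as a block, GAA fell after NXF1 siRNA, at an adjusted p of 0.008. Of these genes, LAMP1, GAA and MCOLN1 carried the longer motif. Capitals mark TCACGTGA, or TCACGTG in either orientation where the longer motif was absent, and each sequence is written 5′ to 3′ on the gene's own strand.
LAMP1, chr13:113297200-113297227, plus strand: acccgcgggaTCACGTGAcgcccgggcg
NEU1, chr6:31862916-31862974, minus strand: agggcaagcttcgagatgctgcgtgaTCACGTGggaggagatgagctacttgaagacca
CTSD, chr11:1763942-1764000, minus strand: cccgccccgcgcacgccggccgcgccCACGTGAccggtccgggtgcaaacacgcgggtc
GAA, chr17:80101478-80101537, plus strand: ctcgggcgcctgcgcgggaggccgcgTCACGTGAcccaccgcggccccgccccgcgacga
MCOLN1, chr19:7522556-7522615, plus strand: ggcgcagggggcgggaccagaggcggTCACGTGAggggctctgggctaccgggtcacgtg
LAMP1, GAA and MCOLN1 each held a further TCACGTGA in the same promoter. Among the 10 members called up after NXF1 siRNA, 9 had a promoter in the table and 3 of these, LAMP1, CTSD and NEU1, held TCACGTG. Among the 29 tested members that were not called up, 20 had a promoter and 6 held it, namely MCOLN1, CLN3, CTSA, GAA, ARSB and GALNS. A match of letters is a description of the window and was not tested as a binding site.

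Signals were deposited by the authors after quantile normalization, and the 9 arrays correlated at 0.987 to 0.997 across genes. Because the arrays were brought to one distribution, a change means a change relative to the other transcripts. Nuclear and whole-cell RNA were not analysed here, so a change in the amount of a transcript and in its share in the cytoplasm cannot be told apart, nor can fewer cells with the transcript and less of it per cell. MCM3AP, the gene targeted by GANP siRNA, fell by 1.04 ± 0.10 (SE) on the log2 scale after GANP siRNA, with an adjusted p of 7e-05, and differed by -0.03 ± 0.10 after NXF1 siRNA. No probe carried the symbol NXF1, so that depletion was not analysed here. Of 12 colon epithelium markers, 8 passed the filter, while CDX1, VIL1, LGALS4 and CEACAM5 did not. Their summed linear signal ran from 63130 to 66650 in the control arrays, from 64360 to 68860 after GANP siRNA and from 78560 to 79010 after NXF1 siRNA, where 5 of the 8 rose. Of 9 fibroblast markers 4 passed the filter, with COL1A2, COL3A1, LUM, PDGFRB and THY1 below it, and their summed signal ran from 916.6 to 953.4 in control, from 840.3 to 1016 after GANP siRNA and from 659 to 739.5 after NXF1 siRNA, where VIM fell by 0.69 ± 0.11 on the log2 scale. Of 12 blood cell and macrophage markers 5 passed, with PTPRC, CD163, CSF1R, MRC1, CD3E and HBB below it, and their sums ran from 967.9 to 1096, from 923.8 to 1128 and from 1303 to 1448, with HBA1 higher by 0.74 ± 0.12 after NXF1 siRNA. The part of these markers in the lysosomal results was not tested.

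After NXF1 siRNA more lysosomal genes rose than fell. Against control, 10 of the 39 genes rose and 3 fell at an adjusted p below 0.05 and a log2 difference beyond 0.25, where 11.6% of all genes rose and 14% fell. NEU1, CTSL, GRN, FUCA1, LAMP1 and IDS had the largest increases, each of 0.65 or more on the log2 scale. The median difference over the 39 genes was 0.17, against 0 over all genes, and 30 of 39 lay above 0, against 49.3% of all genes. All 3 NXF1 siRNA arrays were above all 3 control arrays for 15 of the 39 genes and below them for 5, where 18.7% and 21% of all genes were so placed. HEXA, among the 15 placed above, had a mean log2 signal of 6.36 at its only probe, just over the filter of 6.355. Its means were 6.24 in control, 6.38 after GANP siRNA and 6.46 after NXF1 siRNA. HEXA thus passed the filter only through the depletion arrays, and its place among the 15 is no support for a rise. The same holds for its place among the 30 above 0 and in the median, here and in the comparison of GANP siRNA with control. With the experiment as a block the calls were 15 up and 4 down, where 13.7% of all genes rose and 15.8% fell in that fit, which added LAMP2, CTSA, CTSZ, PPT1 and ACP2 to those that rose and GAA to those that fell.

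In the comparison of GANP siRNA with control, SCARB2, NEU1, FUCA1 and IDS rose and MAN2B1 fell, which made 4 up and 1 down of 39, where 6.28% of all genes rose and 5.9% fell. The median difference was 0.12, against 0 over all genes, and 25 of 39 lay above 0, against 50.4% of all genes. This median rested on 1 array, since without the GANP siRNA array of experiment 3 it was -0.03, and within experiments 1 and 2 it was -0.02 and -0.01, with 19 of 39 members above 0 in each. With the experiment as a block 9 rose and 1 fell, where 9.1% of all genes rose and 8.49% fell in that fit, which added LAMP2, CTSH, SGSH, GRN and ACP2. Both comparisons used the same 3 control arrays, so that their calls are not independent, and 25 of the 39 were called in neither. Of all 13118 genes, 11520 were not called after GANP siRNA and 9755 were not called after NXF1 siRNA. Among the 39 these numbers were 34 and 26. How many of all genes were called in neither is not given here.

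**Figure D1:**
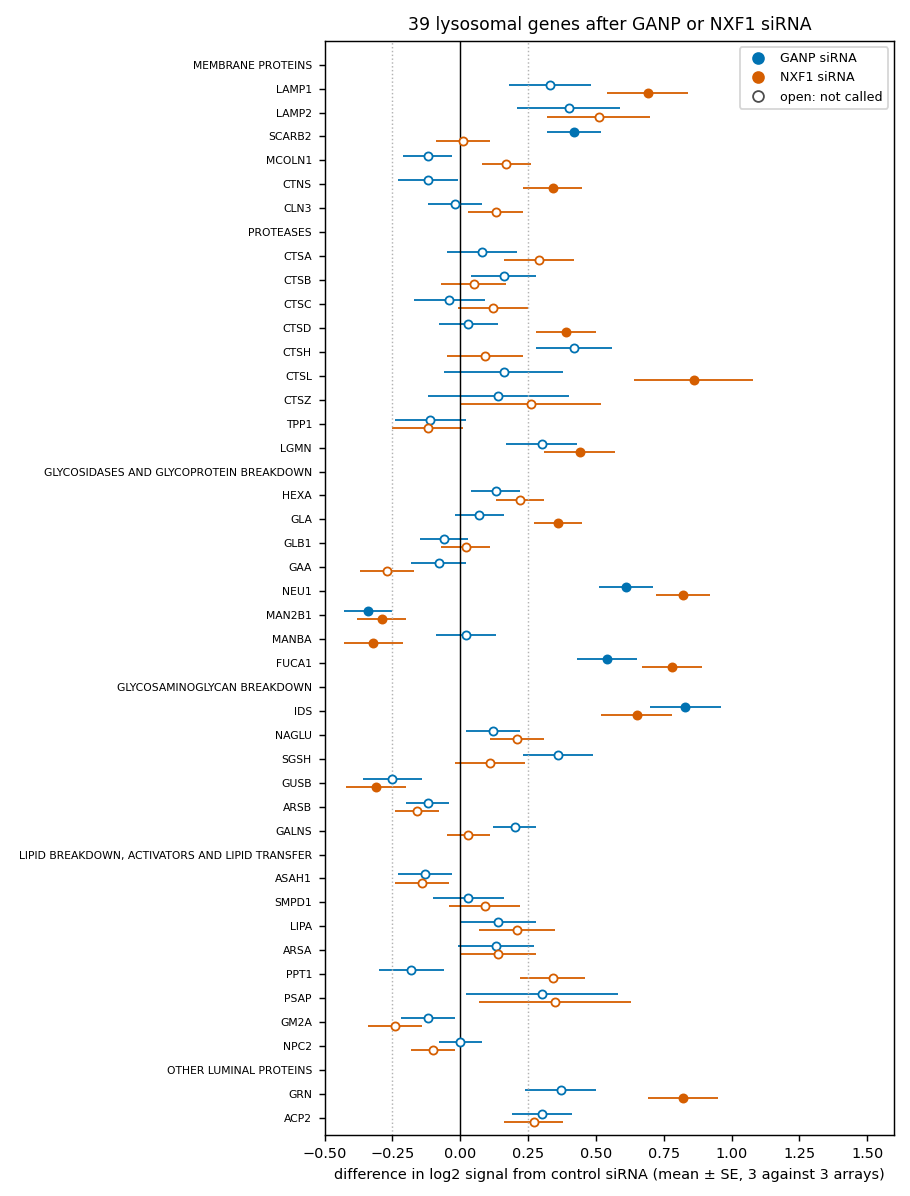
Difference in log2 signal from control siRNA for each of the 39 lysosomal genes after GANP siRNA (blue) and NXF1 siRNA (orange), as mean ± SE of 3 against 3 arrays, grouped by role, with dotted lines at the threshold of 0.25 in either direction. Filled points were called at an adjusted p below 0.05: 4 up and 1 down after GANP siRNA, 10 up and 3 down after NXF1 siRNA.

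The plot of differences by gene shows each role class with both depletions side by side. Among the 6 membrane proteins, LAMP1 and CTNS rose after NXF1 siRNA, where 11.6% of all genes rose. SCARB2 rose after GANP siRNA, where 6.28% of all genes rose. MCOLN1, LAMP2 and CLN3 were not called in either comparison with control. LAMP1, a major glycoprotein of the lysosomal membrane, had log2 signals of 10.19, 10.06 and 10.23 in the control arrays of experiments 1, 2 and 3, of 10.30, 10.22 and 10.95 after GANP siRNA and of 10.73, 10.85 and 10.96 after NXF1 siRNA. All NXF1 siRNA arrays were above control, and of the GANP siRNA arrays only that of experiment 3 reached the NXF1 siRNA range. The increase after NXF1 siRNA was 0.69 ± 0.15 (SE), or 1.61-fold, with an adjusted p of 0.0055, and that after GANP siRNA was 0.33 ± 0.15, with an adjusted p of 0.20.

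SCARB2, the receptor that escorts glucocerebrosidase to the lysosome, read 10.93, 10.99 and 10.84 in control, 11.15, 11.42 and 11.47 after GANP siRNA and 10.89, 11.05 and 10.84 after NXF1 siRNA. Its GANP siRNA arrays were above all arrays of both other groups, whereas the NXF1 siRNA and control arrays overlapped. The increase after GANP siRNA was 0.42 ± 0.10, or 1.34-fold, with an adjusted p of 0.014, and the difference after NXF1 siRNA was 0.01 ± 0.10, with a 95% interval from -0.20 to 0.22. Without control array 3, GANP array 2 or GANP array 3 its adjusted p was 0.056, 0.058 or 0.062. CTNS, the exporter of cystine from the lysosome, read 8.47, 8.46 and 8.49 in control, 8.18, 8.34 and 8.55 after GANP siRNA and 8.62, 8.91 and 8.92 after NXF1 siRNA. It rose by 0.34 ± 0.11 after NXF1 siRNA, with an adjusted p of 0.032, and differed by -0.12 ± 0.11 after GANP siRNA. The CTNS call was lost without any 1 of the 3 control arrays or without NXF1 array 2 or 3, at adjusted p of 0.069 to 0.11. LAMP2, the partner of LAMP1, differed by 0.51 ± 0.19 after NXF1 siRNA and by 0.40 ± 0.19 after GANP siRNA, at adjusted p of 0.064 and 0.20, and of 0.0036 and 0.022 with the experiment as a block.

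Of the 9 proteases, CTSL, LGMN and CTSD rose after NXF1 siRNA, where 11.6% of all genes rose. In the fit without the block 0 of the 9 were called after GANP siRNA, where 6.28% of all genes rose and 5.9% fell. CTSL, the cysteine protease cathepsin L, read 9.24, 9.29 and 9.38 in control, 9.03, 9.21 and 10.15 after GANP siRNA and 9.92, 10.24 and 10.32 after NXF1 siRNA. Signals after NXF1 siRNA all lay above control, while the GANP siRNA arrays of experiments 1 and 2 lay below every control array and that of experiment 3 lay with the NXF1 siRNA arrays. CTSL rose by 0.86 ± 0.22 after NXF1 siRNA, or 1.81-fold, with an adjusted p of 0.012, and differed by 0.16 ± 0.22 after GANP siRNA, with a 95% interval from -0.32 to 0.64. The CTSL call after NXF1 siRNA held when any 1 array was left out, with adjusted p up to 0.046.

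LGMN, the asparagine-specific protease legumain, read 7.76, 7.89 and 7.89 in control, 7.93, 8.01 and 8.50 after GANP siRNA and 8.14, 8.40 and 8.32 after NXF1 siRNA. Every array of either depletion was above control, and the increase of 0.44 ± 0.13 after NXF1 siRNA passed the test at an adjusted p of 0.025, while the difference of 0.30 ± 0.13 after GANP siRNA did not, at 0.17. Without any 1 of the 3 control arrays, or without NXF1 array 2 or 3, the LGMN call was lost at adjusted p of 0.0503 to 0.096. CTSD, the aspartic protease cathepsin D, read 7.65, 7.35 and 7.51 in control, 7.63, 7.33 and 7.63 after GANP siRNA and 7.92, 7.75 and 8.01 after NXF1 siRNA. It rose by 0.39 ± 0.11 after NXF1 siRNA, with an adjusted p of 0.018, and differed by 0.03 ± 0.11 after GANP siRNA. This call was lost without control array 2, at 0.089, or without NXF1 array 3, at 0.074. The 6 other proteases, CTSA, CTSB, CTSC, CTSH, CTSZ and TPP1, were not called against control. Among them CTSH, an aminopeptidase, differed by 0.42 ± 0.14 after GANP siRNA, with an adjusted p of 0.063 and of 0.015 with the experiment as a block. CTSA, which protects NEU1 from degradation, and CTSZ, a carboxypeptidase, differed by 0.29 ± 0.13 and 0.26 ± 0.26 after NXF1 siRNA, at adjusted p of 0.14 and 0.53 and, with the block, of 0.048 and 0.036.

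The glycosidases held members called in both directions. NEU1, the lysosomal sialidase, read 7.55, 7.48 and 7.29 in control, 7.97, 7.94 and 8.26 after GANP siRNA and 8.29, 8.21 and 8.30 after NXF1 siRNA. Both depletions lay above every control array. NEU1 rose by 0.61 ± 0.10 after GANP siRNA, or 1.53-fold, with an adjusted p of 0.0021, and by 0.82 ± 0.10 after NXF1 siRNA, or 1.77-fold, with an adjusted p of 9.4e-05. FUCA1, which removes fucose from glycoproteins, read 8.97, 8.83 and 8.81 in control, 9.32, 9.22 and 9.69 after GANP siRNA and 9.68, 9.58 and 9.68 after NXF1 siRNA, again without overlap with control. It rose by 0.54 ± 0.11 and by 0.78 ± 0.11, with adjusted p of 0.0074 and 0.00026. Calls of NEU1 and FUCA1 held in both comparisons when any 1 array was left out. GLA, the α-galactosidase whose loss causes Fabry disease, read 10.10, 10.09 and 10.13 in control, 10.10, 10.04 and 10.37 after GANP siRNA and 10.45, 10.42 and 10.53 after NXF1 siRNA. It rose by 0.36 ± 0.09 after NXF1 siRNA, with an adjusted p of 0.0098 that stayed below 0.05 when any 1 array was left out, and differed by 0.07 ± 0.09 after GANP siRNA.

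MAN2B1 fell after both depletions and MANBA after NXF1 siRNA, both being enzymes that remove mannose. MAN2B1, the lysosomal α-mannosidase, read 7.02, 7.08 and 6.96 in control, 6.77, 6.50 and 6.76 after GANP siRNA and 6.72, 6.78 and 6.69 after NXF1 siRNA, so both depletions lay below control. It fell by 0.34 ± 0.09 after GANP siRNA and by 0.29 ± 0.09 after NXF1 siRNA on the log2 scale, with adjusted p of 0.023 and 0.026. The GANP siRNA call was lost without control array 1, control array 2 or GANP array 2, at 0.058, 0.094 and 0.094, and the NXF1 siRNA call without control array 1 or 2 or NXF1 array 1 or 3, at 0.054 to 0.10. MANBA, the β-mannosidase, read 7.70, 7.70 and 7.93 in control, 7.62, 7.74 and 8.04 after GANP siRNA and 7.40, 7.42 and 7.54 after NXF1 siRNA. The NXF1 siRNA arrays were all below control while the GANP siRNA arrays overlapped it. MANBA fell by 0.32 ± 0.11 on the log2 scale after NXF1 siRNA, with an adjusted p of 0.044, and the difference after GANP siRNA was 0.02 ± 0.11. The MANBA call was lost without 7 of the 9 arrays in turn, all but GANP arrays 1 and 3, at adjusted p of 0.053 to 0.16, and with no filter on dim probes, at 0.0501. HEXA, GLB1 and GAA were not called, although GAA, the acid α-glucosidase, was below control on all 3 NXF1 siRNA arrays and differed by -0.27 ± 0.10, at an adjusted p of 0.060 and of 0.008 with the experiment as a block.

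Among the 6 tested enzymes of glycosaminoglycan breakdown, IDS rose after both depletions and GUSB fell after NXF1 siRNA. Of all genes, 6.28% rose after GANP siRNA, and 11.6% rose and 14% fell after NXF1 siRNA. IDS, the iduronate sulfatase that is deficient in Hunter syndrome, read 10.03, 9.86 and 9.52 in control, 10.79, 10.57 and 10.54 after GANP siRNA and 10.66, 10.29 and 10.39 after NXF1 siRNA. Neither depletion overlapped control, and within each experiment the GANP siRNA array was the highest of the 3. IDS rose by 0.83 ± 0.13 after GANP siRNA, or 1.78-fold, the largest of the 39 differences there, with an adjusted p of 0.0018, and by 0.65 ± 0.13 after NXF1 siRNA, or 1.56-fold, with an adjusted p of 0.0032. Both calls held when any 1 array was left out. GUSB, the β-glucuronidase, read 9.06, 9.01 and 8.93 in control, 8.63, 8.61 and 9.01 after GANP siRNA and 8.61, 8.79 and 8.66 after NXF1 siRNA. It fell by 0.31 ± 0.11 on the log2 scale after NXF1 siRNA, with an adjusted p of 0.047, and differed by -0.25 ± 0.11 after GANP siRNA, at 0.15. Leaving out any 1 control or NXF1 array ended the GUSB call after NXF1 siRNA, at 0.053 to 0.12, as did testing with no filter on dim probes, at 0.055, and leaving out GANP array 3 brought the GANP siRNA difference to -0.38, at 0.027. NAGLU, SGSH, ARSB and GALNS were not called. SGSH, the heparan sulfamidase, was above control on all 3 GANP siRNA arrays and differed by 0.36 ± 0.13, at an adjusted p of 0.083 and of 0.042 with the experiment as a block. IDS, GUSB and, among the proteases, CTSL have related sequences elsewhere in the genome, and whether their probes also read those was not tested.

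None of the 8 genes of lipid breakdown and lipid transfer was called against control in the fit without the block. The called share of the 13118 tested genes was 6.28% up and 5.9% down under GANP siRNA. Under NXF1 siRNA it was 11.6% up and 14% down. At an unadjusted p below 0.05, 0 of the 8 differed after GANP siRNA, and after NXF1 siRNA 1 was higher and 1 lower. At that cutoff 1745 of the 13118 were higher and 1669 lower under GANP siRNA. Under NXF1 siRNA 2295 were higher and 2590 lower. Whether the 8 genes departed from these rates was not tested. Differences of the 8 ran from -0.18 to 0.30 after GANP siRNA and from -0.24 to 0.35 after NXF1 siRNA. NPC2, which binds cholesterol in the lumen and had the brightest probe of the class, read 13.77, 13.86 and 13.60 in control, 13.69, 13.73 and 13.80 after GANP siRNA and 13.62, 13.67 and 13.64 after NXF1 siRNA. Both depletions overlapped control, and the 95% intervals of the differences were -0.18 to 0.18 and -0.28 to 0.08. PPT1, the thioesterase that removes palmitate from proteins, read 9.74, 9.66 and 9.74 in control, 9.29, 9.51 and 9.80 after GANP siRNA and 9.87, 10.24 and 10.05 after NXF1 siRNA. Its difference of 0.34 ± 0.12 after NXF1 siRNA had an adjusted p of 0.062, and of 0.031 with the experiment as a block. PSAP, the precursor of the saposin activators, had the widest spread of the class, with an SE of 0.28 for differences of 0.30 and 0.35.

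GRN and ACP2 made up the remaining class. GRN, which encodes progranulin, read 7.55, 7.40 and 7.76 in control, 7.78, 7.79 and 8.25 after GANP siRNA and 8.32, 8.41 and 8.44 after NXF1 siRNA. The NXF1 siRNA arrays lay above both other groups, and the GANP siRNA arrays lay between them and control. GRN rose by 0.82 ± 0.13 after NXF1 siRNA, or 1.76-fold, with an adjusted p of 0.00052, and that call held when any 1 array was left out. Its difference after GANP siRNA was 0.37 ± 0.13, at an adjusted p of 0.079 and of 0.015 with the experiment as a block. ACP2, a lysosomal acid phosphatase, differed by 0.30 ± 0.11 after GANP siRNA and by 0.27 ± 0.11 after NXF1 siRNA, at adjusted p of 0.085 and 0.083, and of 0.037 and 0.040 with the block.

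**Figure D2:**
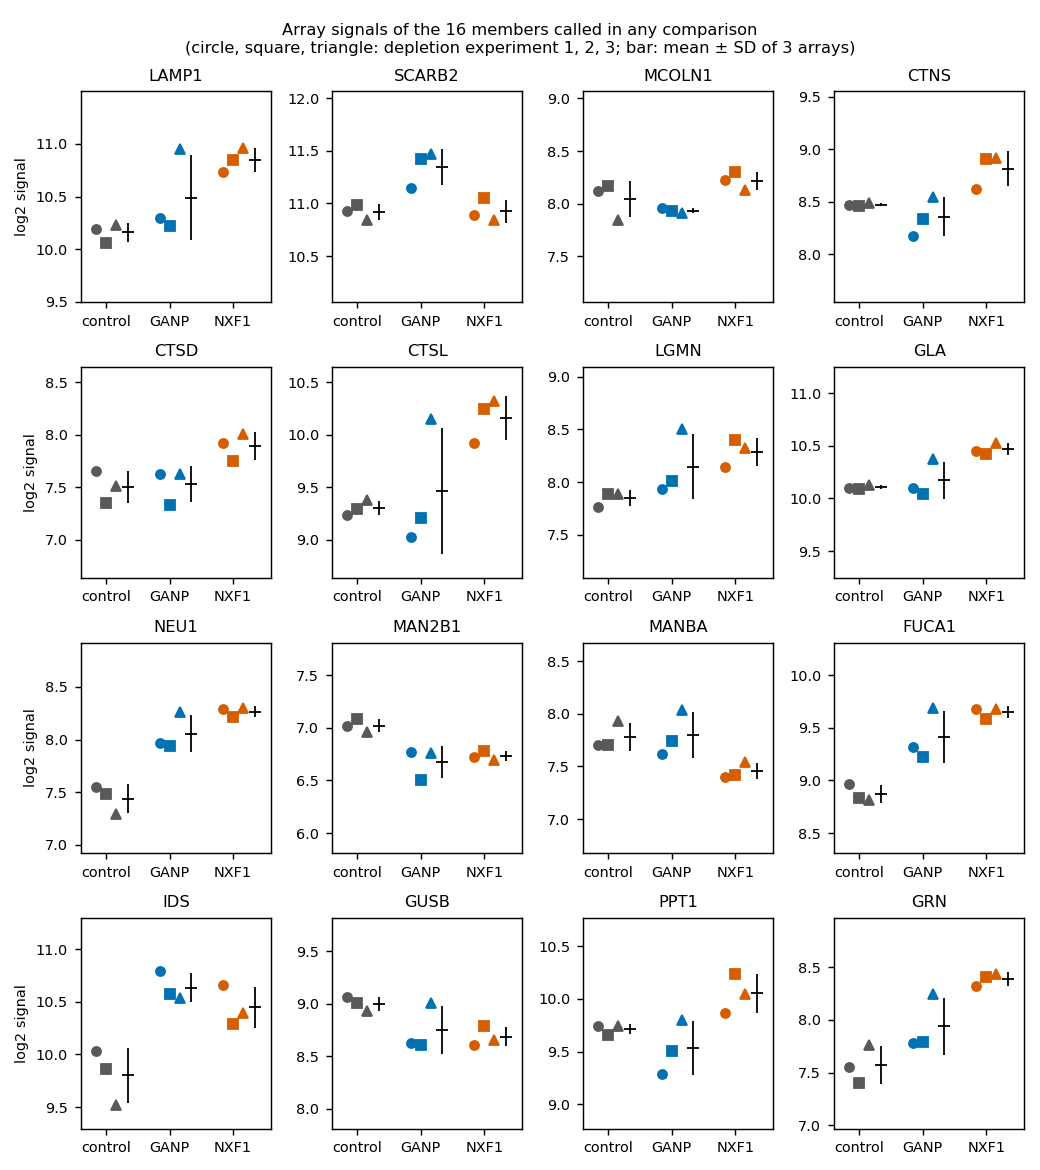
Log2 signal on each of the 9 arrays for the 16 members called in any comparison, with every panel spanning the same range, symbols for depletion experiments 1, 2 and 3, and bars for the mean ± SD of 3 arrays. NEU1, FUCA1 and IDS are separated from control after both depletions, and for CTSL and LAMP1 the GANP siRNA array of experiment 3 lies apart from the other GANP siRNA arrays.

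The array plot sets the spread of each group beside its mean. For many members the GANP siRNA array of experiment 3 was the brightest of its group. It was the highest of the 3 GANP siRNA arrays for 28 of the 39 members, against 32.5% of all genes. The NXF1 siRNA array of experiment 3 was the highest of its group for 20 of 39 members, against 33% of all genes. Among 43 genes of ER translocation and the early secretory pathway, the highest array of its group was GANP array 3 for 27, NXF1 array 2 for 25 and control array 1 for 22. The shares of all genes for these arrays were 32.5%, 29.5% and 37.3%. Of the 39 members, 13 were highest on NXF1 array 2 and 13 on control array 1. The median member lay 0.20 above the group mean on GANP array 3 and 0.10 below it on GANP arrays 1 and 2, where the median of all genes was 0 on all 3. Within experiment 3 the median difference between GANP siRNA and control over the members was 0.23, with 32 of 39 above 0, beside the medians near 0 within experiments 1 and 2. Without GANP array 3, 3 members rose after GANP siRNA, NEU1, FUCA1 and IDS, and 2 fell, MAN2B1 and GUSB. The share of all genes called without that array is not given here, so these counts cannot be set against it. The part of GANP array 3 in the GANP siRNA results beyond these values was not tested. After NXF1 siRNA the within-experiment medians were 0.13, 0.18 and 0.19, with 26, 26 and 32 of 39 members above 0. These counts include HEXA, which passed the filter only through the depletion arrays. NEU1, FUCA1 and IDS were higher than control within each experiment after both depletions, by 0.42, 0.46 and 0.97 for NEU1, by 0.35, 0.39 and 0.88 for FUCA1 and by 0.76, 0.71 and 1.02 for IDS after GANP siRNA.

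**Figure D3:**
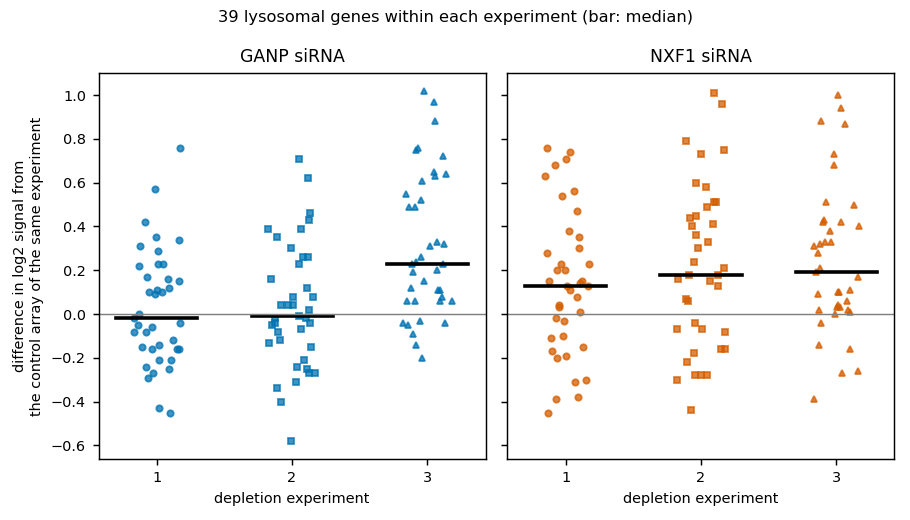
Difference in log2 signal between a depletion array and the control array of the same experiment, with 1 point for each of the 39 members and a bar at the median. The medians after GANP siRNA were -0.02, -0.01 and 0.23 in experiments 1, 2 and 3, and those after NXF1 siRNA were 0.13, 0.18 and 0.19.

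The direct comparison asked which members differed between the depletions themselves. SCARB2 and MANBA were higher after GANP siRNA than after NXF1 siRNA, and 7 genes were lower, namely CTSL, PPT1, CTNS, GRN, CTSD, GLA and MCOLN1, where 11.3% of all genes were higher and 8.29% lower. The block added CTSH to those that were higher and LAMP1 to those that were lower, in a fit where 13.4% of all genes were higher and 10.7% lower. The median difference over the 39 was -0.08. CTNS differed by -0.46 ± 0.11, with an adjusted p of 0.0099, and SCARB2 by 0.42 ± 0.10, with an adjusted p of 0.010. Both calls held when any 1 array was left out. PPT1 differed by -0.52 ± 0.12, with an adjusted p of 0.011 that became 0.056 without NXF1 array 2. CTSL differed by -0.70 ± 0.22, at an adjusted p of 0.041, and lost its call without control array 2 or 3, GANP array 1 or 2 or NXF1 array 2 or 3, at 0.0504 to 0.15, and with each pair of groups fitted separately, at 0.064. GRN differed by -0.45 ± 0.13, at 0.026, and lost its call without GANP array 1 or 2 or NXF1 array 2 or 3, at 0.075 to 0.11. CTSD differed by -0.37 ± 0.11, at 0.033, and lost its call without GANP array 2 or NXF1 array 1 or 3, at 0.073 to 0.14. GLA differed by -0.30 ± 0.09, at 0.035, and lost its call without control array 2, GANP array 1 or 2 or any NXF1 array, at 0.053 to 0.15, and with separate fits, at 0.065. MCOLN1, the calcium channel of the lysosomal membrane, differed by -0.29 ± 0.09, at 0.043, and lost its call without any 1 GANP array or NXF1 array 1 or 2, at 0.073 to 0.14, with no filter on dim probes, at 0.0525, and with an intensity trend in the prior variance, at 0.052. MANBA differed by 0.35 ± 0.11, at 0.040, and lost its call without control array 2, GANP array 2 or 3 or any NXF1 array, at 0.052 to 0.15, with a difference of 0.23 without GANP array 3, and with separate fits, at 0.052. LAMP1 was not called, at -0.36 ± 0.15 and an adjusted p of 0.13, or 0.043 with the block, and without GANP array 3 it differed by -0.59 at 0.0023. NEU1, FUCA1 and IDS, which rose after both, differed by -0.21 ± 0.10, -0.24 ± 0.11 and 0.19 ± 0.13 between the depletions, with 95% intervals of -0.43 to 0.01, -0.48 to 0 and -0.10 to 0.47. Without GANP array 3, NEU1 and FUCA1 were lower after GANP siRNA than after NXF1 siRNA, by -0.31 at 0.044 and by -0.37 at 0.017.

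Different probes of one gene gave a further reading for 15 members with several probes above the filter. Of all 17568 such probes, 5.38% rose and 5.14% fell after GANP siRNA, and 11.5% rose and 12.6% fell after NXF1 siRNA. Counting no call as a call, all probes of a member agreed for 14 of the 15 after GANP siRNA and for 10 after NXF1 siRNA. No probe was called in any agreeing member after GANP siRNA, and after NXF1 siRNA only in CTSL. Called and uncalled probes were mixed in 1 member after GANP siRNA, IDS. After NXF1 siRNA they were mixed in 5, namely IDS, CTNS, CTSC, LAMP2 and LGMN. In 0 did probes receive opposite calls. The 3 probes of CTSL all rose after NXF1 siRNA, by 0.86, 0.80 and 0.47. For IDS, 2 of 3 probes rose after both depletions, by 0.83 and 0.33 after GANP siRNA and by 0.65 and 0.40 after NXF1 siRNA, whereas the remaining and dimmest IDS probe differed by -0.02 and -0.10. LGMN rose after NXF1 siRNA at 1 of 3 probes, the others differing by 0.17 and 0.03, and CTNS at 1 of 2, the other differing by 0.00 ± 0.09. With the mean of a gene's probes in place of the brightest probe, neither was called, at 0.21 and an adjusted p of 0.14 for LGMN and at 0.17 and 0.15 for CTNS. CTSC, the dipeptidyl peptidase cathepsin C, was not called at its brightest probe, at 0.12 ± 0.13, but 1 other of its 3 probes rose by 0.48 ± 0.09. In the direct comparison that other probe was lower after GANP siRNA than after NXF1 siRNA, by -0.66 ± 0.09 at an adjusted p of 0.00061. The brightest CTSC probe differed there by -0.16 ± 0.13, at 0.43. LAMP2 was called at 1 of 6 probes, at 0.34 ± 0.11, where its brightest probe differed by 0.51 ± 0.19.

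**Figure D4:**
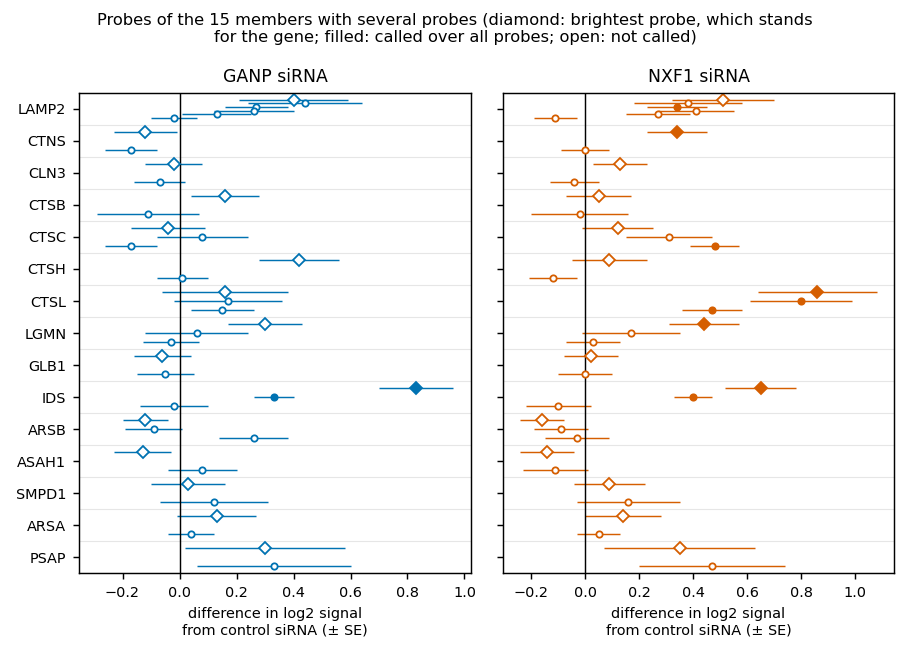
Difference in log2 signal from control siRNA (± SE) at each probe above the filter of the 15 members with several probes, after GANP siRNA and NXF1 siRNA, with diamonds for the brightest probe, which stands for the gene, and filled symbols for probes called over all 17568 probes. All 3 CTSL probes are called after NXF1 siRNA, and 2 of the 3 IDS probes are called after both depletions.

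Other genes of the lysosome and of the route to it were read beside the 39. Of all genes tested, 6.28% rose and 5.9% fell after GANP siRNA, and 11.6% rose and 14% fell after NXF1 siRNA. Whether the calls of any list differed from these shares was not tested. Among 30 other lysosomal genes 2 were called up and 1 down under GANP siRNA, and 7 up and 1 down under NXF1 siRNA, with medians of 0.09 and 0.15. MFSD8, a membrane transporter, rose after both, by 0.45 ± 0.13 and 0.59 ± 0.13, while CD63, a tetraspanin of the lysosomal membrane, and LAPTM4A rose after NXF1 siRNA by 0.57 ± 0.17 and 0.53 ± 0.17. The proton pump that acidifies the lumen, the V-ATPase, moved in both directions after NXF1 siRNA, with 6 of 18 genes higher and 3 lower and a median of 0.24. ATP6AP1, an accessory subunit, rose by 0.89 ± 0.18, and ATP6V0B and ATP6V0C, subunits of the membrane sector, by 0.72 ± 0.09 and 0.54 ± 0.08. Of the peripheral sector, ATP6V1C1 fell after both depletions, by 0.43 ± 0.08 and 0.38 ± 0.08 on the log2 scale, while ATP6V1H rose after both, by 0.42 ± 0.09 and 0.31 ± 0.09. Calls went both ways in either sector after NXF1 siRNA, with the membrane subunit ATP6V0E2 falling by 0.40 ± 0.08 and the peripheral subunits ATP6V1F and ATP6V1D differing by -0.54 ± 0.08 and 0.26 ± 0.09.

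Of 19 genes for sorting and maturation of lysosomal proteins, 1 rose after GANP siRNA and 2 rose and 2 fell after NXF1 siRNA, with medians of 0.01 and 0.04. Beside this and the lists that follow stand the shares of all genes. These were 6.28% up and 5.9% down after GANP siRNA, and 11.6% up and 14% down after NXF1 siRNA. M6PR, a mannose 6-phosphate receptor, rose by 0.56 ± 0.11 after NXF1 siRNA, with NAGPA, the enzyme that uncovers the mannose 6-phosphate tag, at 0.40 ± 0.08, while GGA2, an adaptor for the receptor at the Golgi, fell by 0.54 ± 0.08 on the log2 scale. The 17 genes for the MiT/TFE factors and for nutrient signalling at the lysosome gave 1 rise and 1 fall under GANP siRNA, and 5 rises and 3 falls under NXF1 siRNA, with medians of 0.07 and -0.01. TFEB was not among the 17 genes tested. RRAGA, a GTPase that recruits mTORC1 to the lysosome, fell by 1.05 ± 0.08 after NXF1 siRNA, and TFE3 and RHEB, an activator of mTORC1, rose by 0.50 ± 0.10 and 0.48 ± 0.10. Of 32 genes of autophagy and lysosome fusion, 2 rose after GANP siRNA and 7 rose and 4 fell after NXF1 siRNA, with medians of 0.11 and 0.08. VPS16, a subunit of the lysosomal tethering complexes, fell by 0.59 ± 0.09 after NXF1 siRNA, and VAMP7, a SNARE protein of the lysosome, rose by 0.51 ± 0.08.

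Genes of ER translocation and the early secretory pathway, through which lysosomal proteins also pass, gave medians close to those of the 39, at 0.09 after GANP siRNA and 0.16 after NXF1 siRNA. Of 43 such genes, 3 rose after GANP siRNA, where 6.28% of all genes rose. After NXF1 siRNA 12 of the 43 rose and 3 fell, where 11.6% of all genes rose and 14% fell. TMED9, a cargo receptor, SRPRB, which anchors the receptor for the signal recognition particle in the ER membrane, and SPCS3, a subunit of signal peptidase, rose by 1.13 ± 0.15, 1.02 ± 0.13 and 0.73 ± 0.14 after NXF1 siRNA. Within experiments 1, 2 and 3 their medians after GANP siRNA were -0.01, 0.04 and 0.22.

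**Figure D5:**
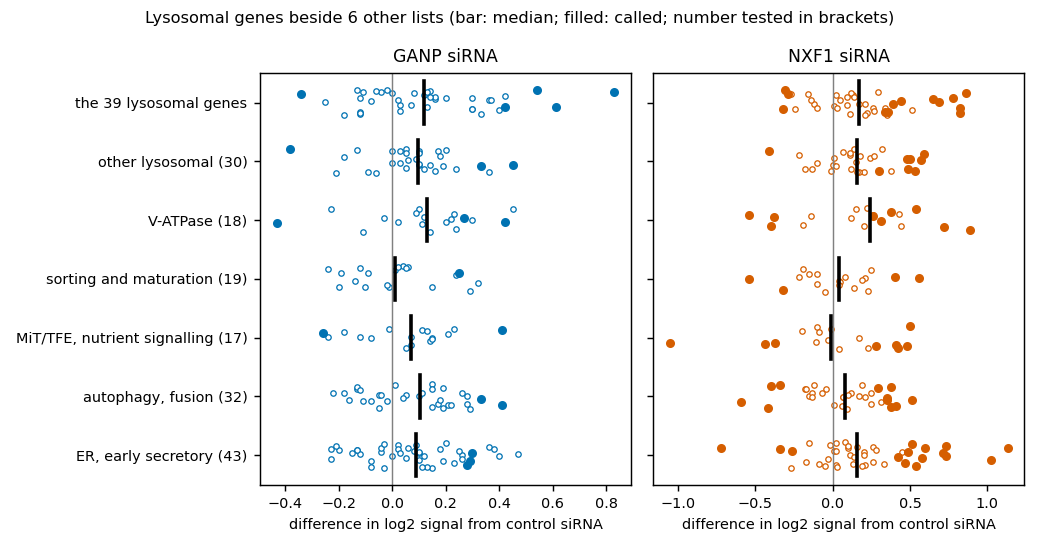
Difference in log2 signal from control siRNA for the 39 lysosomal genes and 6 other lists, with 1 point per gene, filled where called, and a bar at each median. After NXF1 siRNA the medians ran from -0.01 for the MiT/TFE and nutrient signalling genes to 0.24 for the V-ATPase, and the 39 lysosomal genes stood at 0.17.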

How the data were processed

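The authors extracted cytoplasmic RNA after digitonin permeabilization, hybridised it to Illumina HumanWG-6 v3 arrays, read the scans in BeadStudio and quantile normalized them with lumi, whose version is not given in the sources used here. The deposited values are linear probe intensities, with array medians of 95.24 to 95.32. Here they were background corrected (normexp, offset 50), quantile normalized again, which moved values by at most 0.00182, and taken to log2. Genes were named from the platform annotation, which gave 27578 of 48803 probes 1 symbol, 13 several and 21212 none. Probes with 1 symbol were kept where their mean log2 signal exceeded 6.355, the median over the array, and the brightest stood for its gene. The groups were fitted together with limma 3.58.1 in R 4.3.3, with Benjamini-Hochberg adjustment over 13118 genes within each of 3 comparisons, and calls needed an adjusted p below 0.05 and a log2 difference beyond 0.25. Scripts were tested on simulated data.

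Replicate numbers mark independent depletion experiments. Arrays of different groups that shared a number deviated together (correlation 0.107 to 0.461 in 9 pairs, against -0.402 to 0.12 in 18 other pairs), so the experiment was also fitted as a block. The members and gene lists were chosen with earlier results of these data known. Array values are given for each member called against control and for the brightest member of a class without a call (NPC2), members whose probes differ in their call (LAMP2 and CTSC among them) are named, and other lists are represented by at most 3 called genes per comparison with the largest unrounded differences. PPT1, CTSH, CTSA, CTSZ, SGSH, GAA, PSAP, MCOLN1, ACP2, ATP6V0E2, ATP6V1D and ATP6V1F are given beyond that rule and were picked after their values were seen. A table of non-normalized signals and detection p-values, with 18 value columns named by slide position alone, was not used. Precision is limited by 3 arrays per group. No depth applies. Alternatives were the filter, probe rule, background correction, scaling, block, separate fits, prior trend, threshold and leaving out each array.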

Additional observations from a re-analysis of the deposited data

Results flagged for a closer look

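A CTSC and a LAMP2 probe that do not stand for their gene were called after NXF1 siRNA where the brightest probe was not. A CTSC probe was 0.48 ± 0.09 higher after NXF1 siRNA than in control, with an adjusted p of 0.0025 over all 17568 probes, whereas the brightest CTSC probe differed by 0.12 ± 0.13. A LAMP2 probe was 0.34 ± 0.11 higher, with an adjusted p of 0.039, whereas the brightest LAMP2 probe differed by 0.51 ± 0.19 at an adjusted p of 0.066.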

How the results depend on the processing

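Of 2433 values of single members over the alternatives, 2299 kept their side of the threshold, 91 fell below it, 43 passed it and 0 turned direction with a call. Values without a call could change sign and still be among the 2299. The CTSL difference after GANP siRNA, for example, ran from -0.18 to 0.38 when 1 array was left out. After GANP siRNA the count of members that rose was 9 with the replicate block and 8 at an adjusted p below 0.1, and the count that fell was 0 with the filter at percentile 75 and 0 at an adjusted p below 0.01. After NXF1 siRNA 1 fell with no filter on dim probes, 0 fell and 6 rose at an adjusted p below 0.01, and the median was 0.14 with no filter and 0.26 at percentile 75, where fewer genes were tested. Between the depletions 1 was higher after GANP siRNA with separate fits, and 1 higher and 1 lower at an adjusted p below 0.01. Leaving out 1 array at a time, 3 to 5 members rose and 0 to 2 fell after GANP siRNA, with a median of -0.03 to 0.13. After NXF1 siRNA 7 to 12 rose and 0 to 4 fell, with a median of 0.15 to 0.22. Between the depletions 1 to 3 were higher and 2 to 9 lower after GANP siRNA, with a median of -0.11 to 0. With the replicate block the counts after NXF1 siRNA were 15 up and 4 down, and those between the depletions were 3 higher and 8 lower. The block ended no call of a member. Apart from the block, the shares of all genes called under these alternatives are not given here. A shift in the members' counts therefore cannot be told apart from a shift in the calls of all genes. The cause of these shifts was not tested.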
